A study of Mus musculus with 6 samples.

Results

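Immediate early genes are genes whose transcripts appear within minutes of a stimulus without new protein synthesis. The 37 genes described here, chosen by symbol from a fixed list of immediate early and dissociation stress genes, were all among the 14228 genes of the deposited count table, and 36 of them passed the filter on low counts. They were measured in podoplanin-positive cells from stomachs in which gastric cancer was induced (cancer-associated fibroblasts, CAF, 3 libraries from 5 mice) and of control mice (normal fibroblasts, 3 libraries from 4 mice). All mice were 8 weeks old and carried the triple-transgenic iLgr5;GLI2A system, which lets drugs start tumours by turning on active GLI2, a Hedgehog pathway factor, in stem cells that express Lgr5. CAF mice received tamoxifen in corn oil by gavage for 5 days and were then kept on doxycycline chow for 3 weeks, with the drug also in their water over the opening 3 days. Control mice received corn oil with neither drug, so the cancer and the drugs cannot be told apart. CAF libraries 1, 2 and 3 held the cells of 1, 2 and 2 mice, and normal libraries 1, 2 and 3 those of 1, 1 and 2 mice. Each library was made by MARS-seq, in which the 3′ ends of polyadenylated RNA are counted.

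The genes of the list are switched on through serum response factor with its ETS partners, through CREB and through NF-kB, which lie downstream of growth factor receptors, stretch, calcium and cytokine signals. Many of the products are transcription factors, such as the FOS and JUN proteins that pair as AP-1. Others, such as DUSP1, ZFP36 and NFKBIA, shut the same signals down again. The genes are also known to be induced while tissue is dissociated to single cells, and stomachs of both groups went through EDTA buffer at 37 °C for 20 min, collagenase A and a live sort before RNA was taken. Levels in tissue that was not dissociated were not analysed here. In RNA from a pool of sorted cells, fewer cells of a type and less RNA per cell cannot be told apart.

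The sequences just upstream of 6 members are shown because the members differ in the motifs of their known inputs: Atf3 and Ier3, the members of smallest p in each direction, Fos, Nr4a1 with the most short CREB sites among those printed, Dusp1 with a full cyclic AMP response element, and Zfp36 with a CArG box, the site of serum response factor. Each is the 250 bases before the gene start in RefSeq on GRCm38.p6, written 5′ to 3′ on the strand of the gene, and capitals mark the motifs.
Atf3 (chr1:191183334-191183583, minus strand): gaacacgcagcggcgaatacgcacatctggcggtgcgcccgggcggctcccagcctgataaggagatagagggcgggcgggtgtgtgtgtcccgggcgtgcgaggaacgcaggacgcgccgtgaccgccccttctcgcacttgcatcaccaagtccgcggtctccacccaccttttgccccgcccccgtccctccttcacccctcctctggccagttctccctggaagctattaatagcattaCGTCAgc
Ier3 (chr17:35821463-35821712, plus strand): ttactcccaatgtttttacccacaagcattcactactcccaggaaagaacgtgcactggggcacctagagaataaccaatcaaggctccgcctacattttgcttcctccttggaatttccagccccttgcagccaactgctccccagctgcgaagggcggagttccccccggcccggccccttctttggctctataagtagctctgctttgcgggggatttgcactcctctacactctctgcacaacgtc
Fos (chr12:85473640-85473889, plus strand): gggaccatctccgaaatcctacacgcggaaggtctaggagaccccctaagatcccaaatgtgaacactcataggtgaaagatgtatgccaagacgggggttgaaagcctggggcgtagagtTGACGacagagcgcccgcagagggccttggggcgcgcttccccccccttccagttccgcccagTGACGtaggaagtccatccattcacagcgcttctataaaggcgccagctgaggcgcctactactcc
Nr4a1 (chr15:101266596-101266845, plus strand): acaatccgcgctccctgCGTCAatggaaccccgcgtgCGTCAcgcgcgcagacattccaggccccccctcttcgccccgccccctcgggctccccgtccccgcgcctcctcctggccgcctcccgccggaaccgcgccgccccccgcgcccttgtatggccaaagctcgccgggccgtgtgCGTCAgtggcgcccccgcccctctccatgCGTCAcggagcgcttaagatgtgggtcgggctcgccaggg
Dusp1 (chr17:26508473-26508722, minus strand): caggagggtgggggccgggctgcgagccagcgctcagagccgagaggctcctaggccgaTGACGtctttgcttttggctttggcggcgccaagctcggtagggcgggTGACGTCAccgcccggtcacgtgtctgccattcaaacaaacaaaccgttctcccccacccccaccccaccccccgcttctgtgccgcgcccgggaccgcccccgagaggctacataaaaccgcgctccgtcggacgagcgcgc
Zfp36 (chr7:28379229-28379478, minus strand): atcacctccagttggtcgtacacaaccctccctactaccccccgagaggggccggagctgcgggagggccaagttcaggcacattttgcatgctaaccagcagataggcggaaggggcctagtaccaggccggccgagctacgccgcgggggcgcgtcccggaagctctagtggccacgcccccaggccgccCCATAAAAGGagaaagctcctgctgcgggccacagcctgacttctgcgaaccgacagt
Motifs were searched on both strands as the CArG box, as TGACGTCA, as its short form TGACG (which each full site holds once on each strand) and as the AP-1 site TGANTCA. RefSeq windows were matched for 29 of the 37 members. The short site was in an upstream window of 17 of these 29 (58.6%), against 19.8% of the 27025 genes with a window. The full site was in Btg2, Dusp1 and Maff (10.3% against 1.77% of all genes), the CArG box in Dusp5, Egr2 and Zfp36 (10.3% against 1.62%), and the AP-1 site in Csrnp1 and Klf9 (6.90% against 7.82%). The Ier3 window above held none of these motifs, and sites of NF-kB were not searched in any window. A match is a description of the sequence only. Sequence beyond the 250 bases was not searched, so a window without a motif does not mean that the gene lacks the site. Egr1 was among the members without a window.

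Total counts ranged from 644522 to 6422568 in the CAF libraries and from 768420 to 3259644 in the normal libraries, and 3 counts corresponded to between 0.406 and 4.39 CPM (counts relative to library sizes scaled by the trimmed mean of M-values). Fibroblast markers (12 genes, none at 0) took 1.27% to 4.14% of counts in CAF and 0.466% to 1.64% in normal libraries. The markers of gastric gland cells (17 of 19 genes in the table, none at 0) took 0.552% to 0.852% in CAF libraries, against 17.7%, 14.03% and 3.99% in normal libraries 1, 2 and 3. Epcam, removed by the sort gate, was at 114 to 233 CPM in CAF and 13.8 to 150 CPM in normal libraries, while Ptprc (CD45) and Pecam1 (CD31) were at most 5.52 and 4.19 CPM in CAF and 3.80 and 9.39 CPM in normal libraries. The libraries also differed by the GC content of the transcripts they held: over 10022 genes the deviation of a library from the gene mean correlated positively with GC content in CAF library 1 and normal libraries 1 and 3 (Spearman coefficient 0.17 to 0.35) and negatively in CAF libraries 2 and 3 and normal library 2 (-0.40 to -0.26). Squamous forestomach markers (8 genes) took 0.00884% to 0.0121% in CAF and 0.0152% to 0.239% in normal libraries, and immune markers (7 of 9 genes) 0.0203% to 0.188% in CAF and 0.00433% to 0.0765% in normal libraries. The part of gland RNA and of GC content in the results was not tested beyond the values given beside them.

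Immediate early genes were abundant in both groups. The 37 members together took 2.08%, 1.87% and 1.75% of all counts in CAF libraries 1, 2 and 3, against 1.60%, 1.56% and 2.73% in normal libraries 1, 2 and 3. On scaled library sizes they summed to 19644, 16620 and 15175 CPM in CAF, against 21288, 17893 and 26224 CPM in normal libraries. CAF library 1 lay above normal library 2, so the groups overlapped by either measure, and normal library 3 was the highest of the 6 libraries by both. The scaling moved the libraries differently, with factors of 1.07 to 1.17 in CAF and 0.758 to 1.05 in normal libraries. Of the 36 tested members, 8 were highest and 8 lowest in CAF library 1, and 11 were highest and 8 lowest in normal library 3. The median deviation of the tested members from their gene means (log2) was 0.24, 0.17 and -0.07 in normal libraries 1, 2 and 3. In CAF libraries 1, 2 and 3 it was -0.17, -0.16 and -0.24.

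**Figure D1:**
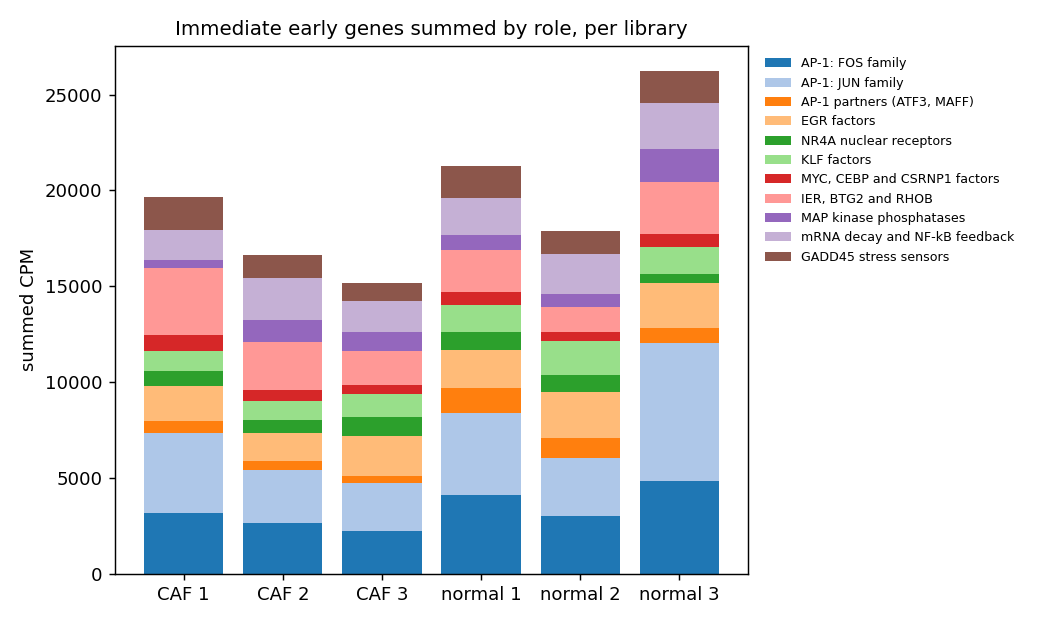
Summed CPM of the 37 immediate early genes in each library, stacked by role. The 3 CAF libraries reach 19644, 16620 and 15175 CPM and the 3 normal libraries 21288, 17893 and 26224 CPM, and the JUN family reaches 7177 CPM in normal library 3.

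The comparison of CAF with normal libraries called none of the members. By the quasi-likelihood test of edgeR, with p-values adjusted after Benjamini and Hochberg over all 10148 genes tested, 0 of 36 members were higher and 0 were lower in CAF at an adjusted p of 0.05, where 1.1% of all genes were called, 0.897% higher and 0.207% lower. At an unadjusted p of 0.05 there were 4 members, Atf3, Klf2 and Gadd45b lower and Ier3 higher, where 15.3% of all genes were. DESeq2 called Atf3 lower and Ier3 higher, where it called 7.28% of genes in either direction, and the authors' deposited table has the same 2 members at an adjusted p under 0.05, where 6.37% of its genes are. Log2 fold changes (CAF minus normal) were negative for 24 and positive for 12 members, against 46.1% negative among all genes tested. Their median was -0.38, beside 0.06 for all genes tested. The groups did not overlap for 5 members: Ier3 was above (10.6% of all genes were), and Junb, Atf3, Klf2 and Gadd45b were below (9.35% of all genes were).

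**Figure D2:**
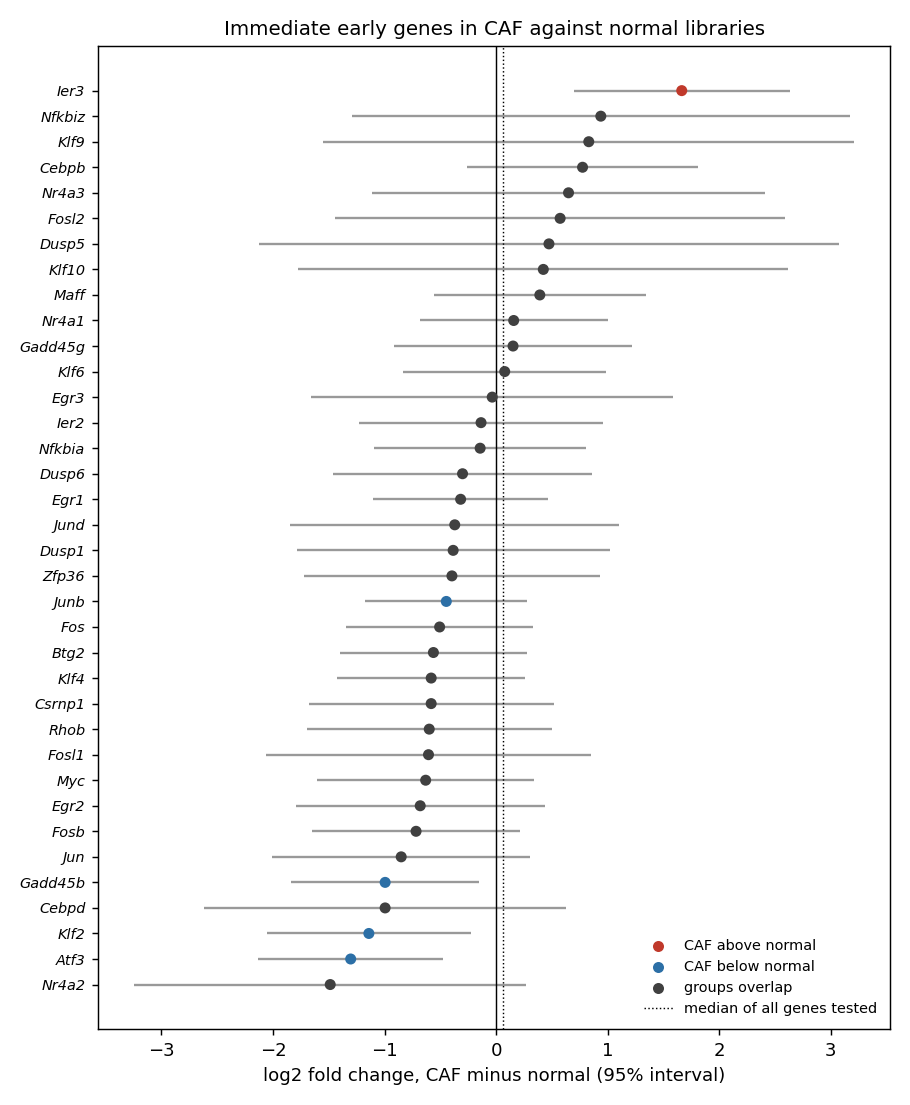
Log2 fold change of each of the 36 tested members, CAF minus normal, with its single-gene 95% interval (edgeR), ordered from highest to lowest. The dotted line is the median of all genes tested (0.06). Ier3 at the top and Klf2, Atf3 and Gadd45b near the bottom have intervals that do not reach 0 before adjustment.

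The median changed with the normal libraries that were kept. Normal libraries 1 and 2 held most gland RNA, and with the gland marker genes removed the median was -0.38, beside 0.06 for all genes. That fit removed only the marker genes, so it cannot show how much gland cells added to the counts of members. Leaving both libraries out kept only normal library 3, on the GC-rich side, and the cause of the change was not tested. Without normal libraries 1 and 2 the median over the 37 members then tested was 0.18, with 18 of 37 negative, beside a median of 0.29 for all genes. Without normal library 3 it was -0.14, with 23 of 37 negative, beside 0.06. With a term for the GC side of the library, a fit chosen after seeing the data, it was -0.46, beside -0.00 for all genes.

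The FOS family makes the partners that dimerise with JUN proteins to form AP-1. Fos (chr12:85473890-85477273 on mm10), the classical serum-induced member, was at 1889, 1843 and 1583 CPM in CAF libraries 1, 2 and 3, against 2401, 1886 and 3262 CPM in normal libraries. Normal library 2 lay within the CAF values. The log2 fold change was -0.51 ± 0.36 (SE), with a 95% interval from -1.34 to 0.33, and it did not pass (adjusted p = 0.59 by edgeR). Fosb, which is induced together with Fos, was at 1229, 738 and 587 CPM in CAF, against 1597, 1045 and 1553 CPM in normal libraries. CAF library 1 reached into the normal range, and the log2 fold change of -0.72 ± 0.40 (SE) did not pass (adjusted p = 0.469 by edgeR). Fosl1 and Fosl2, the FRA proteins that appear later and last longer, had log2 fold changes of -0.61 and 0.57. Fosl1 was at 15.3 to 38.04 CPM in CAF and 12.5 to 62.1 CPM in normal libraries, and Fosl2 at 2.93 to 50.6 and 6.25 to 39.3 CPM, with CAF library 1 lowest of all.

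The JUN proteins are the partners of FOS proteins in AP-1. Jun was at 1767, 1249 and 1048 CPM in CAF, against 2099, 1237 and 3991 CPM in normal libraries. Normal library 3 was far above the rest and normal library 2 lay among the CAF values. The log2 fold change was -0.85 ± 0.50 (SE) (adjusted p = 0.497 by edgeR), and -0.38 without normal library 3. Junb, which can restrain Jun, was the steadiest member within CAF, at 1116, 1073 and 1100 CPM, against 1387, 1334 and 1761 CPM in normal libraries. All CAF values lay below all normal values, yet the difference was small, with a log2 fold change of -0.45 ± 0.31 (SE), a 95% interval from -1.17 to 0.28 and an adjusted p of 0.584 by edgeR. Junb overlaps Prdx2 on the other strand, and counts of the pair cannot be told apart where strand was not used. Jund, the constitutive member, was at 342 to 1315 CPM in CAF and 448 to 1426 CPM in normal libraries, a log2 fold change of -0.37 ± 0.64 (SE).

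Atf3 and Maff encode bZIP factors that bind as AP-1 partners. Atf3, the stress-induced factor, had the smallest p among members lower in CAF. It was at 518, 394 and 309 CPM in CAF libraries, against 1233, 997 and 780 CPM in normal libraries. The groups did not overlap, at 407 ± 105 and 1003 ± 226 CPM (SD, n = 3 libraries each). The log2 fold change was -1.30 ± 0.36 (SE), 2.47-fold lower in CAF, with an adjusted p of 0.121 by edgeR and a range over the alternatives from 0.00764 (DESeq2) to 0.489 (without normal libraries 1 and 2). It was -0.96 between the libraries on the GC-rich side and -1.50 on the GC-poor side (log2 ratios of mean CPM + 1), and -0.94 against normal library 3 alone. Maff, a small MAF protein, was at 101, 57.7 and 46.9 CPM in CAF, against 66.1, 34.2 and 52.5 CPM in normal libraries. Its log2 fold change was 0.39 ± 0.41 (SE).

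EGR factors are zinc finger proteins induced by the ERK pathway through serum response factor. Egr1 was at 1801, 1413 and 2036 CPM in CAF, against 1942, 2315 and 2286 CPM in normal libraries. CAF library 3 lay above normal library 1, and the log2 fold change of -0.32 ± 0.34 (SE; 95% interval -1.10 to 0.46) did not pass (adjusted p = 0.734 by edgeR). Egr2, a close relative needed in Schwann cells and lymphocytes, was at 16.1, 32.7 and 36.4 CPM in CAF, against 64.5, 51.9 and 22.5 CPM in normal libraries, a log2 fold change of -0.68 ± 0.48 (SE). Its groups overlapped through normal library 3. Egr3 was at 4.39 to 16.0 CPM in CAF and 2.501 to 15.2 CPM in normal libraries, and its log2 fold change of -0.03 changed sign in several fits.

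NR4A proteins are orphan nuclear receptors that act without a known hormone ligand. Nr4a1 (NUR77) was at 714, 655 and 983 CPM in CAF, against 855, 776 and 476 CPM in normal libraries. The values were interleaved, with a log2 fold change of 0.16 ± 0.36 (SE; 95% interval -0.68 to 1.00). Nr4a2 (NURR1) was at 21.9, 20.8 and 14.9 CPM in CAF, against 62.8, 89.9 and 6.25 CPM in normal libraries. Normal library 3 was lowest of the 6 and the other normal libraries were highest. Its log2 fold change of -1.49 ± 0.76 (SE) was the most negative of the list (adjusted p = 0.419 by edgeR). It passed without normal library 3 (-2.07, adjusted p = 0.0155 by edgeR), where 10% of genes passed, and was 1.65 without normal libraries 1 and 2 (adjusted p = 0.483). Nr4a3 (NOR1) was at 30.7, 14.6 and 29.9 CPM in CAF, against 20.8, 24.1 and 1.25 CPM in normal libraries, where normal library 3 had 1 count.

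**Figure D3:**
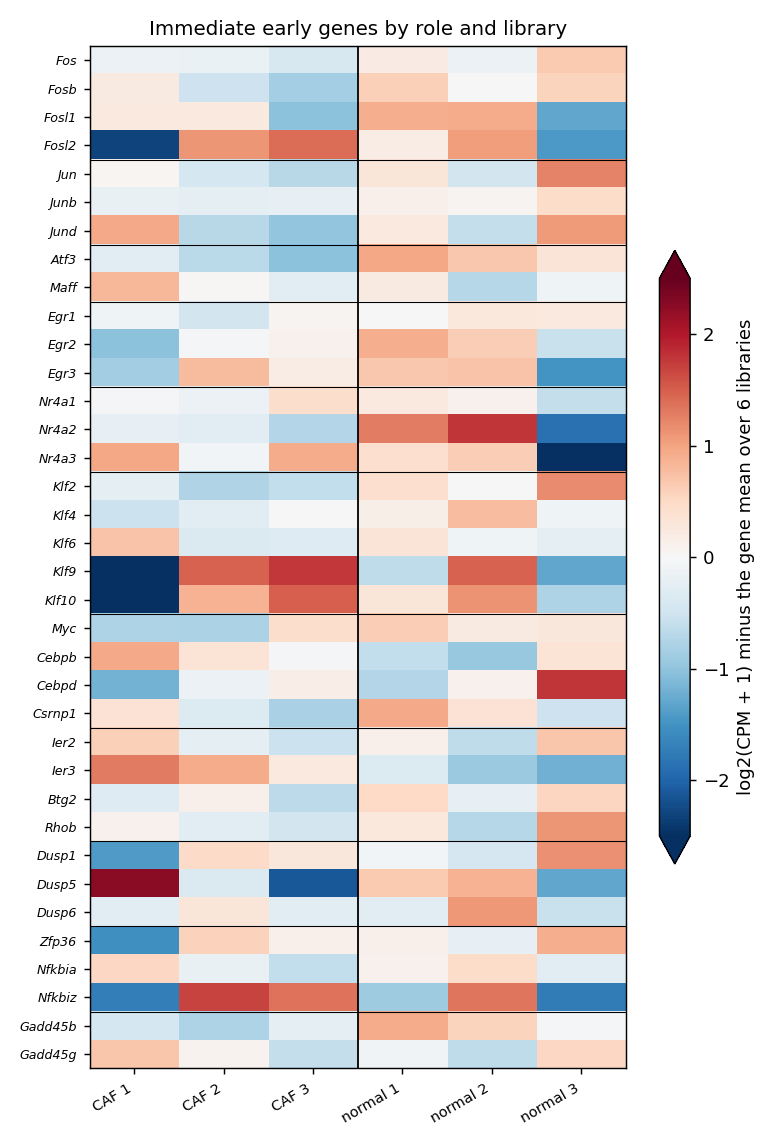
Level of each tested member in each library, as log2(CPM + 1) minus the mean of the gene over the 6 libraries, in rows grouped by role (red above, blue below the mean). Klf9, Klf10, Nfkbiz and Fosl2 are low in CAF library 1, and Nr4a2, Nr4a3 and Egr3 in normal library 3.

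KLF factors are zinc finger proteins, and KLF2 and KLF4 are known to respond to shear and to restrain proliferation. Klf2 was at 200, 139 and 154 CPM in CAF, against 315, 233 and 538 CPM in normal libraries. All CAF values were below all normal values, at 165 ± 32.05 and 362 ± 158 CPM (SD, n = 3 each). This gave a log2 fold change of -1.14 ± 0.39 (SE), 2.20-fold lower in CAF, and did not pass (adjusted p = 0.219 by edgeR, 0.0854 to 0.607 over the alternatives). It was -1.09 and -0.67 between libraries of the GC-rich and GC-poor sides and -1.70 against normal library 3 alone. Klf4, also a marker gene of differentiating epithelium, was at 508, 602 and 731 CPM in CAF, against 812, 1259 and 685 CPM in normal libraries, a log2 fold change of -0.58 ± 0.36 (SE). Klf6 was at 159 to 337 CPM in CAF and 174 to 257 CPM in normal libraries, a log2 fold change of 0.08 ± 0.39 (SE). Klf9, a glucocorticoid target, and Klf10, a TGF-beta target, had log2 fold changes of 0.83 ± 1.03 and 0.42 ± 0.95 (SE). Both groups spread widely: Klf9 was at 2.93, 74.0 and 90.9 CPM in CAF, against 16.3, 73.5 and 10.0 CPM in normal libraries. Klf10 had 0 counts in CAF library 1 (which allows up to 4.39 CPM) and was at 13.7 and 21.8 CPM in CAF libraries 2 and 3, against 8.98, 16.5 and 3.75 CPM in normal libraries. The log2 fold change of Klf9 was 1.36 without CAF library 1 and 2.07 without normal library 2, and that of Klf10 was 0.88 and 0.91.

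Cebpb and Cebpd encode bZIP factors of the acute-phase and inflammatory response, and Myc the growth factor-induced regulator of biosynthesis. Cebpb was at 597, 395 and 302 CPM in CAF, against 202, 161 and 393 CPM in normal libraries. Only normal library 3 reached the CAF values. On the log2 scale the fold change was 0.78 ± 0.45 (SE; 95% interval -0.26 to 1.81; adjusted p = 0.488 by edgeR), with 1.00 and 1.11 on the GC-rich and GC-poor sides and 0.13 against normal library 3 alone. Cebpd was at 8.78 to 23.9 CPM in CAF and 12.2 to 75.0 CPM in normal libraries, with normal library 3 highest and a log2 fold change of -0.99 ± 0.70 (SE). Myc was at 33.7, 33.3 and 79.7 CPM in CAF, against 89.8, 68.4 and 71.3 CPM in normal libraries. CAF library 3 lay within the normal range, and the log2 fold change was -0.63 ± 0.42 (SE; adjusted p = 0.558 by edgeR). Csrnp1, a nuclear factor induced by AXIN, was at 95.5 to 218 CPM in CAF and 117.6 to 329 CPM in normal libraries. Its gene body overlaps Cx3cr1, and those of Cebpb and Cebpd overlap Tmem189 and Spidr.

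Ier3, an early response gene that counters cell death and is induced through NF-kB, had the most positive log2 fold change of the tested members. Ier3 (chr17:35821684-35822923 on mm10) was at 1604, 1226 and 764 CPM in CAF, against 509, 341 and 281 CPM in normal libraries. The lowest CAF library lay above the highest normal library, with means of 1198 ± 420 and 377 ± 118.2 CPM (SD, n = 3 each). This gave a log2 fold change of 1.66 ± 0.42 (SE), 3.17-fold higher in CAF, with a single-gene 95% interval from 0.70 to 2.63. It did not pass (adjusted p = 0.0998 by edgeR) and ranged from 0.00474 (DESeq2) to 0.379 (without normal libraries 1 and 2) over the alternatives. The size held in every fit that left out 1 library (1.40 to 1.91), between libraries of the GC-rich (2.02) and GC-poor side (1.54) and against normal library 3 alone (2.09). Ier2, a nuclear early response protein, was at 1371, 771 and 620 CPM in CAF, against 985, 584 and 1459 CPM in normal libraries, a log2 fold change of -0.13 ± 0.47 (SE). Ier5 had 0, 22 and 22 counts in CAF, against 3, 0 and 1 counts in normal libraries, and was not tested. Btg2, an antiproliferative target of p53, was at 231, 317 and 184 CPM in CAF, against 408, 250 and 421 CPM in normal libraries (-0.56 ± 0.36, SE), and Rhob, an inducible small GTPase, had a log2 fold change of -0.60 ± 0.47 (SE).

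**Figure D4:**
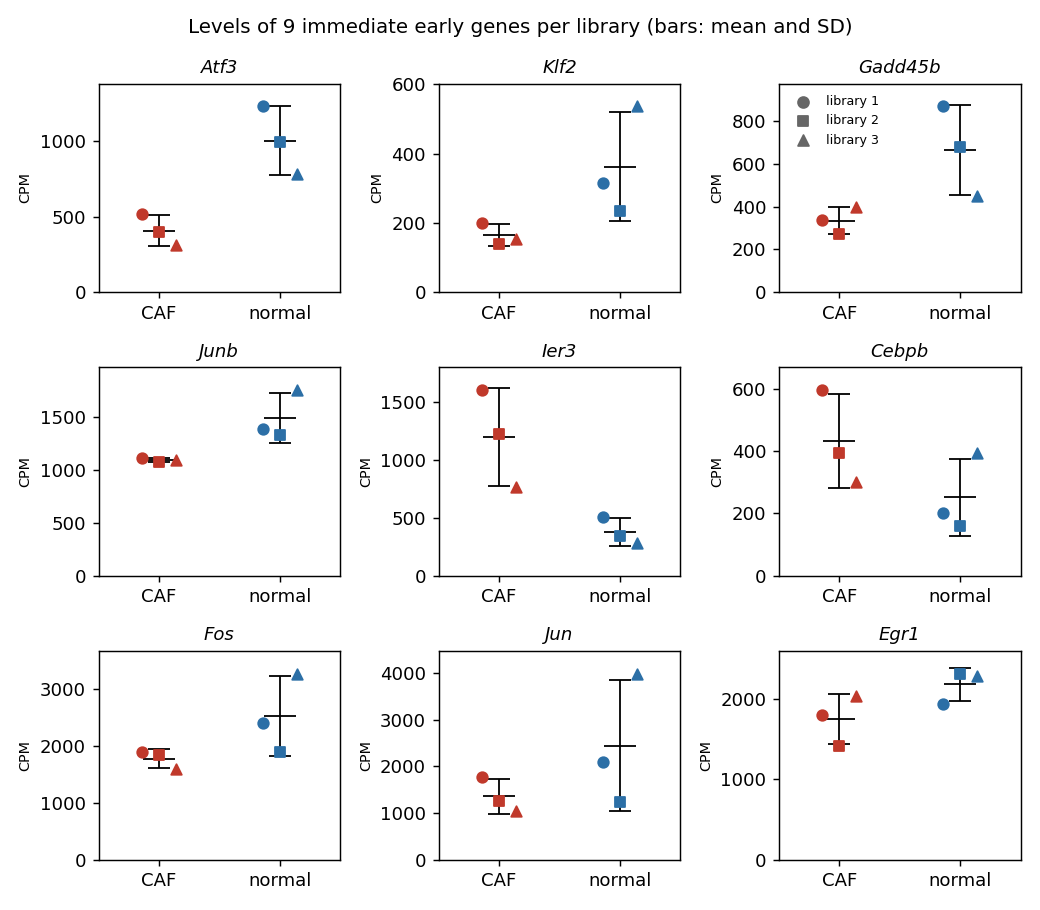
CPM of 9 members in each library, with CAF left and normal right, the library number as the symbol, and bars for the mean and SD of 3 libraries. The first 5 are the members whose groups do not overlap, among which Ier3 alone is higher in CAF, and Cebpb, Fos, Jun and Egr1 overlap.

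DUSP phosphatases remove the activating phosphates of MAP kinases. Dusp1, which acts on p38 and JNK, was at 288, 1078 and 941 CPM in CAF, against 741, 574 and 1703 CPM in normal libraries. CAF library 1 was the lowest of all and the other CAF libraries lay within the normal range. The log2 fold change was -0.38 ± 0.60 (SE), or 0.0041 without CAF library 1 and 0.17 without normal library 3. Its gene body overlaps Ergic1. Dusp6, which acts on ERK, was at 27.8, 42.1 and 27.6 CPM in CAF, against 27.7, 72.2 and 22.5 CPM in normal libraries (-0.30 ± 0.50, SE). Dusp5, the nuclear ERK phosphatase, spread most within CAF among members with counts in every library of the group after Klf9, at 84.9, 13.0 and 3.11 CPM, against 27.3, 31.7 and 6.25 CPM in normal libraries.

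Zfp36 (tristetraprolin) clears cytokine transcripts with AU-rich elements, and the NF-kB inhibitor NFKBIA and its relative NFKBIZ feed back on NF-kB. Zfp36 was at 304, 1315 and 969 CPM in CAF, against 970, 773 and 1668 CPM in normal libraries. As for Dusp1, CAF library 1 was lowest, and the log2 fold change was -0.40 ± 0.57 (SE), or 0.01 without that library. Nfkbia was at 561 to 1242 CPM in CAF and 707 to 1192 CPM in normal libraries, with a log2 fold change of -0.14 ± 0.41 (SE). Nfkbiz was at 10.2, 119 and 93.7 CPM in CAF, against 19.2, 92.5 and 10.0 CPM in normal libraries. The high libraries were CAF 2 and 3 and normal 2, the GC-poor side, and the log2 fold change was 0.94 ± 0.96 (SE), or -0.09 with the GC term.

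GADD45 proteins bind stress kinases and take part in cell cycle arrest. Gadd45b, a target of TGF-beta and NF-kB, was at 338, 270 and 397 CPM in CAF, against 873, 679 and 449 CPM in normal libraries. All CAF values were below all normal values, at 335 ± 63.2 and 667 ± 212 CPM (SD, n = 3 each), though normal library 3 came close. Its fold change on the log2 scale was -0.99 ± 0.36 (SE), 1.99-fold lower in CAF, and did not pass (adjusted p = 0.245 by edgeR). It passed without normal library 3 (adjusted p = 0.0386 by edgeR), where 10% of all genes passed. Without normal libraries 1 and 2 the log2 fold change was -0.37. It was -0.97 and -1.02 on the GC-rich and GC-poor sides, and -0.42 against normal library 3 alone. Gadd45g was at 1390, 910 and 567 CPM in CAF, against 804, 548 and 1226 CPM in normal libraries, a log2 fold change of 0.15 ± 0.46 (SE).

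Members differed between libraries of the same group, and in CAF the shares were close to those of all genes tested. In CAF, 9 of 36 tested members (Fosl2, Egr2, Egr3, Klf9, Klf10, Cebpd, Dusp1, Zfp36 and Nfkbiz) were at least 2-fold lower in library 1 than in both other libraries, as were 23.0% of all genes tested, and Jund, Klf6 and Dusp5 were at least 2-fold higher, as were 8.10% of all genes. The transcripts of the 9 had a GC content of 46.9% to 54.1% (median 51.4%), against a median of 54.2% for the 36. Those of Jund, Klf6 and Dusp5 ranged from 42.4% to 67.1% (median 56.7%), and Klf6 was the lowest of the 36. Among the 9, Klf10, Fosl2, Klf9 and Egr3 had only 0, 2, 2 and 3 counts in CAF library 1. Over the 36 members, the difference of CAF library 1 from CAF libraries 2 and 3 correlated with transcript GC content with a Spearman coefficient of 0.49 and with transcript length at -0.47. The same correlation with GC content was 0.46 over all genes. The difference of normal library 3 from normal libraries 1 and 2 had a Spearman coefficient of 0.44 with GC content. GC content and length were themselves correlated over the members (-0.63), and all points of a panel share the same libraries. The log2 fold change between the groups had a Spearman coefficient of -0.08 with GC content.

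**Figure D5:**
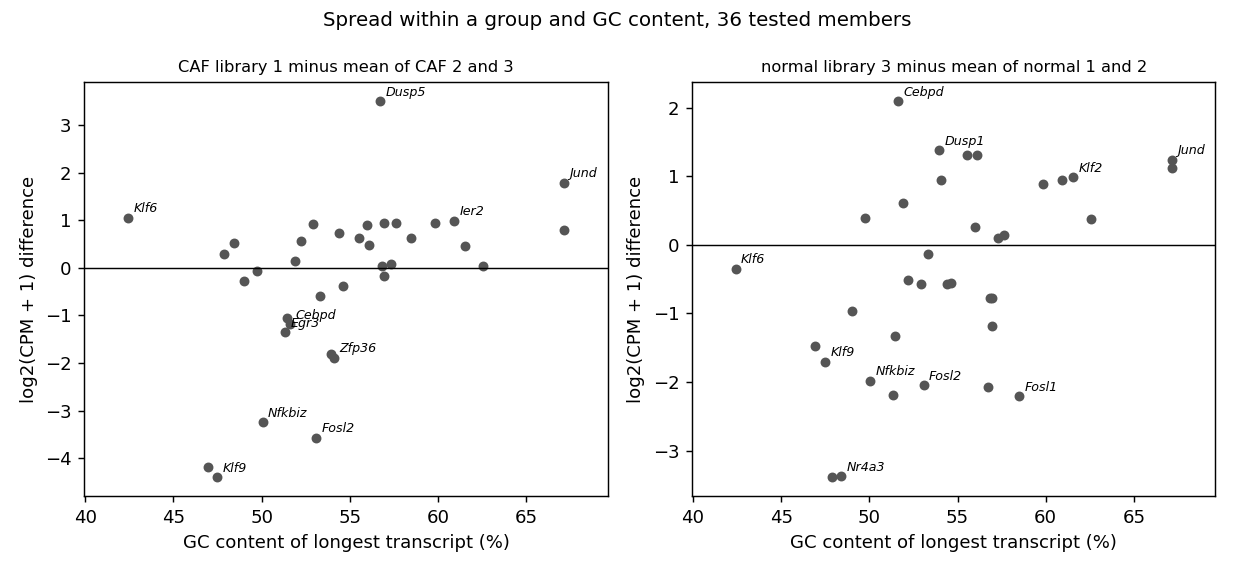
Difference between libraries of the same group in log2(CPM + 1) against the GC content of the longest annotated transcript in percent, 1 point per tested member. Left, CAF library 1 minus the mean of CAF libraries 2 and 3 (Spearman coefficient 0.49). Right, normal library 3 minus the mean of normal libraries 1 and 2 (Spearman coefficient 0.44). Jund lies high and Klf9 and Nfkbiz low in both panels. Other members go opposite ways: Dusp5 is at 3.50 on the left and -2.07 on the right. Cebpd is at -1.19 and 2.10, and Dusp1 at -1.80 and 1.38.

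Genes outside the list in the same pathways were taken from lists of textbook membership. None of them was called by edgeR. Among 27 tested other immediate and delayed early genes, 15 had negative and 12 positive log2 fold changes, with a median of -0.24. Those of smallest p were Spry4, a feedback inhibitor of receptor tyrosine kinases, at 54.1, 50.7 and 33.0 CPM in CAF against 6.53, 7.60 and 21.3 CPM in normal libraries (2.01, adjusted p = 0.114 by edgeR), and the polo-like kinase Plk2 (-1.07) and the p38 and JNK phosphatase Dusp10 (-1.48). In 2 of these 27 genes, Spry4 among them, all CAF libraries lay above all normal libraries, as in 10.6% of all genes tested. In 4, Plk2 and Dusp10 among them, all CAF libraries lay below, as in 9.35% of all genes tested. Among 9 tested input factors (median 0.12), the ETS factor Elk3, a partner of serum response factor, was at 57.1, 44.9 and 34.1 CPM in CAF against 11.4, 12.7 and 20.0 CPM in normal libraries (1.63, adjusted p = 0.0937 by edgeR). Elk1 and Atf2 had log2 fold changes of 1.22 and 1.44 with overlapping groups. Among 15 tested ERK, JNK and p38 kinases (median -0.06), Map3k5, the stress kinase ASK1, was at 4.39 to 7.87 CPM in CAF and 16.5 to 24.1 CPM in normal libraries (-1.61, adjusted p = 0.115 by edgeR), and Mapk9 had a log2 fold change of -0.56. DESeq2 had Spry4, Elk3 and Map3k5 past its threshold (adjusted p = 0.0174, 0.0147 and 0.0265), where it called 7.28% of all genes in either direction.

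Heat shock genes are the other part of published dissociation signatures. Of 10 tested, 7 had negative and 3 positive log2 fold changes, with a median of -0.82. Hspa1a was at 477, 652 and 451 CPM in CAF, against 1631, 1414 and 1561 CPM in normal libraries (-1.54, adjusted p = 0.0705 by edgeR), and Hspa1b had a log2 fold change of -1.57. The 2 genes are nearly identical and can exchange reads. Hspb1, a small heat shock protein, was at 1516, 1396 and 798 CPM in CAF, against 514, 471 and 469 CPM in normal libraries (1.35, adjusted p = 0.115 by edgeR). DESeq2 had Hspa1a, Hspa1b and Hspb1 past its threshold (adjusted p = 1.78e-05, 0.00525 and 0.00773), where it called 7.28% of all genes in either direction. In 1 of the 10 genes, Hspb1, all CAF libraries lay above all normal libraries, as in 10.6% of all genes tested. In 4, Hspa1a and Hspa1b among them, all CAF libraries lay below, as in 9.35% of all genes tested.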

How the data were processed

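The authors deposited 1 table of raw counts per gene symbol for 6 libraries (3 CAF, 3 normal). Per the submitters' processing notes it was made with cutadapt, STAR, HTSeq and DESeq2 on mm10, with no versions; annotation, strand and handling of molecular identifiers were not given in the sources used. The table also holds the authors' normalized signal and a regularized log2 value, both not used, and the authors' log2 fold change, p-value and adjusted p-value. Every gene in it has at least 6 counts in some library, so lower genes were removed before deposit. Each library held cells of 1 or 2 mice of its own, so p-values measure the spread between these libraries.

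The test of raw counts was that of edgeR 4.0.16 under R 4.3.3 (filterByExpr, trimmed mean of M-values, glmQLFTest on group, Benjamini-Hochberg over 10148 genes, threshold 0.05). Standard errors derive from the F statistic and are approximate, and 95% intervals are for single genes and unadjusted. Floors of 3 counts cover counting error only. In simulated counts for CAF against normal with 10148 genes, 0, 8, 34 and 47 of 50 genes changed 2-fold, 4-fold, 8-fold and 32-fold were called, and 8 unchanged genes. Alternatives were DESeq2 1.42.0, limma-voom 3.58.1, other size factors and filters, libraries left out, the number of mice as a covariate, gland genes removed, counts thinned to the smallest library and, added after seeing the data, a GC side term. Gene positions are from GENCODE M21 (mm10), and GC content from its longest transcript per symbol.

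The members and lists were chosen with earlier results of these data known. By the rule for named genes, values per library are given for the 2 members of smallest p and the most abundant member of each role. Those of Klf9, Klf10 and Dusp5 are given outside this rule. Figure panels and the 2-fold sets were chosen after values were seen. For 1 gene of the kinase list the values are not reported here.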

Additional observations from a re-analysis of the deposited data

How the results depend on the processing

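No paired analysis was possible because the labels give the groups no shared replicate numbers. Over all genes, the count called was 112 in the main analysis, 935 by DESeq2, 65 by limma-voom, 0 without normal libraries 1 and 2 (1271 at an unadjusted p of 0.05), and 0 (without normal library 1) to 1193 (without normal library 3) with 1 library left out. DESeq2 called 1 member higher and 1 lower, where it called 7.28% of genes in either direction. With 1 library left out, 0 members were called higher in each fit, and 0 to 3 lower. The 3 were Atf3, Gadd45b and Nr4a2 without normal library 3, where 10% of all genes were called in either direction. The median log2 fold change of the members was -0.25 with mice per library as a covariate, 0.18 without normal libraries 1 and 2, and -0.45 to -0.14 with 1 library left out; the cause was not tested. Of 610 values of single members under the alternatives, 561 kept direction and side of the threshold. Direction turned, with no call before or after, without normal libraries 1 and 2 for Fosl1 (1.31), Egr2 (0.44), Egr3 (2.18), Nr4a2 (1.65), Csrnp1 (0.38), Dusp6 (0.60), Nfkbia (0.32) and Gadd45g (-0.32). It turned with the mice covariate for Fosl1 (0.13), Egr3 (0.21), Klf10 (-0.17) and Nfkbia (0.067). With the GC term it turned for Fosl2 (-0.55), Jund (0.0030), Klf9 (-0.51), Klf10 (-0.70), Ier2 (0.21) and Nfkbiz (-0.091), by limma-voom for Egr3 (0.13) and Dusp5 (-1.38), and with the stricter filter for Egr3 (0.015). With 1 library left out, direction turned in at least 1 fit for Jund (-1.23 to 0.051), Egr3 (-0.50 to 0.25), Nr4a1 (-0.12 to 0.29), Klf6 (-0.36 to 0.28), Klf10 (-0.27 to 0.91), Cebpd (-1.46 to 0.041), Ier2 (-0.54 to 0.15), Dusp1 (-0.68 to 0.17), Dusp5 (-1.45 to 1.08), Dusp6 (-0.63 to 0.36), Zfp36 (-0.80 to 0.0066), Nfkbia (-0.50 to 0.086) and Gadd45g (-0.22 to 0.43). Depth limits Fosl2, Egr3, Nr4a3, Klf9, Klf10 and Ier5 most, which had fewer than 3 counts in some library.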
